A study of Mus musculus with 8 samples.

Results

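The genes described here encode the 3 enzyme families that conjugate or hydrolyse drugs, steroids, bile acids and lipids in the liver: the UDP-glucuronosyltransferases (Ugt), the sulfotransferases (Sult) and the carboxylesterases (Ces). They were chosen by symbol (Ugt, Sult or Ces followed by a family number) and by a summed count of at least 80 over the 8 liver libraries, in either group, so the choice used the level and not the difference between the groups. Of 61 measured genes with such a symbol, among 20894 genes in all, 37 were kept: 18 of 22 Ugt genes, 7 of 21 Sult genes and 12 of 18 Ces genes. The other 24 were at 0 in every library (11 genes) or had some counts but fewer than 80 in all (13 genes). Nearest to the threshold were Ugt1a2 with 82 counts inside it and Sult1e1 with 77 and Ces2h with 57 outside it. The libraries were made from poly-A RNA of livers of wild-type mice killed after a fast in the daytime. Every animal had received AAV8, a virus that delivers genes to the liver, and in both groups the insert was driven by TBG, a promoter active mainly in hepatocytes. The insert was POLR2G, a subunit of RNA polymerase II, in 4 libraries, and green fluorescent protein (GFP) in the 4 control libraries. The labels used here give no age, sex or strain.

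Glucuronosyltransferases sit in the endoplasmic reticulum and join glucuronic acid, taken from UDP-glucuronate, to bilirubin, steroids, bile acids and phenols, which makes them water soluble for bile and urine. Sulfotransferases work in the cytosol and transfer sulfate from the donor PAPS to phenols, catecholamines, hydroxysteroids and bile acids. Carboxylesterases cut ester bonds inside the endoplasmic reticulum, both in drugs and in stored fat. Hepatocytes hold most of these enzymes, and many of the mouse genes differ between males and females because their level depends on the rhythm of growth hormone.

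Total counts per library ran from 14159056 to 22165491. Polr2g itself was at 13.7 ± 1.003 CPM in the control libraries and 2412 ± 154 in the POLR2G libraries (SD, n = 4 each), and every library matched its group. CPM is the count rescaled by library size and by TMM factors, which adjust for composition. Which animal gave which library is not labelled, and the p-values speak only to variation among these 8 libraries, part of which may be technical. All 8 hepatocyte markers were measured, and their summed level was 125251 to 146994 CPM in the control and 117129 to 131740.0 CPM in the POLR2G libraries. Kupffer cell and macrophage markers summed to 167 to 266 CPM in the control and 185 to 366 CPM in the POLR2G libraries, endothelial markers to 96.05 to 129 and 103 to 129, stellate cell markers to 65.1 to 113 and 65.7 to 104, and cholangiocyte markers to 5.53 to 11.7 and 6.53 to 10.8. Their part in the results was not tested. Markers of lymphocytes and neutrophils summed to at most 2.11 CPM in a library. Of the intestine and kidney markers, Slc12a1 was at 0 and Vil1, Lct and Umod had at most 3 counts in a library, while Fabp2 was at 87.5 ± 22.2 CPM in the controls and 67.5 ± 6.45 CPM in the POLR2G libraries. In bulk liver, fewer cells of a type and less RNA per cell cannot be told apart. Some genes known to be abundant in liver are nearly missing from the counts: Ugdh, which encodes the enzyme that makes UDP-glucuronate, was at 0 in all libraries, and Actb did not exceed 29 counts nor Rpl3 3 counts in any. Levels and totals carry that limit, and 16 of the 37 genes chosen have several annotated coding transcripts.

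The question was how these enzymes differ between livers given POLR2G and livers given GFP. Of the 36 genes that passed the low-count filter (all but Ugt1a2), 25 had a higher and 11 a lower mean in the POLR2G libraries. Over all 10390 genes tested, 5124 had a higher and 5266 a lower mean. None of the 36 passed the edgeR quasi-likelihood test after adjustment over all 10390 genes tested, where 4 genes (0.0385%) passed. The smallest adjusted p among the 36 was 0.132, for Ces1g. With the replicate number as a block, which uses 6 libraries, 2 genes passed over all genes and again 0 of the enzymes. Before adjustment, edgeR gave p under 0.05 for 10 of the 36 (27.8%), 7 higher and 3 lower, beside 862 of all genes tested (8.3%), 436 higher (4.2%) and 426 lower (4.1%). The groups did not overlap for 5 of the 36 (13.9%): Ces1g, Ces2b, Sult2a8 and Ugt2b1 lay above the controls in all 4 POLR2G libraries and Ugt2b37 below them. Over all genes tested the share was 5.51% (2.83% above and 2.68% below). DESeq2 called 135 of all genes tested (1.3%, with 0.703% higher and 0.597% lower) and 3 of the 36, all higher: Ces1g (adjusted p = 1.87e-05), Sult2a8 (0.000296) and Ces2b (0.00766). The median log2 fold change was 0.10 over the 36 and −0.0031 over all genes tested.

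**Figure D1:**
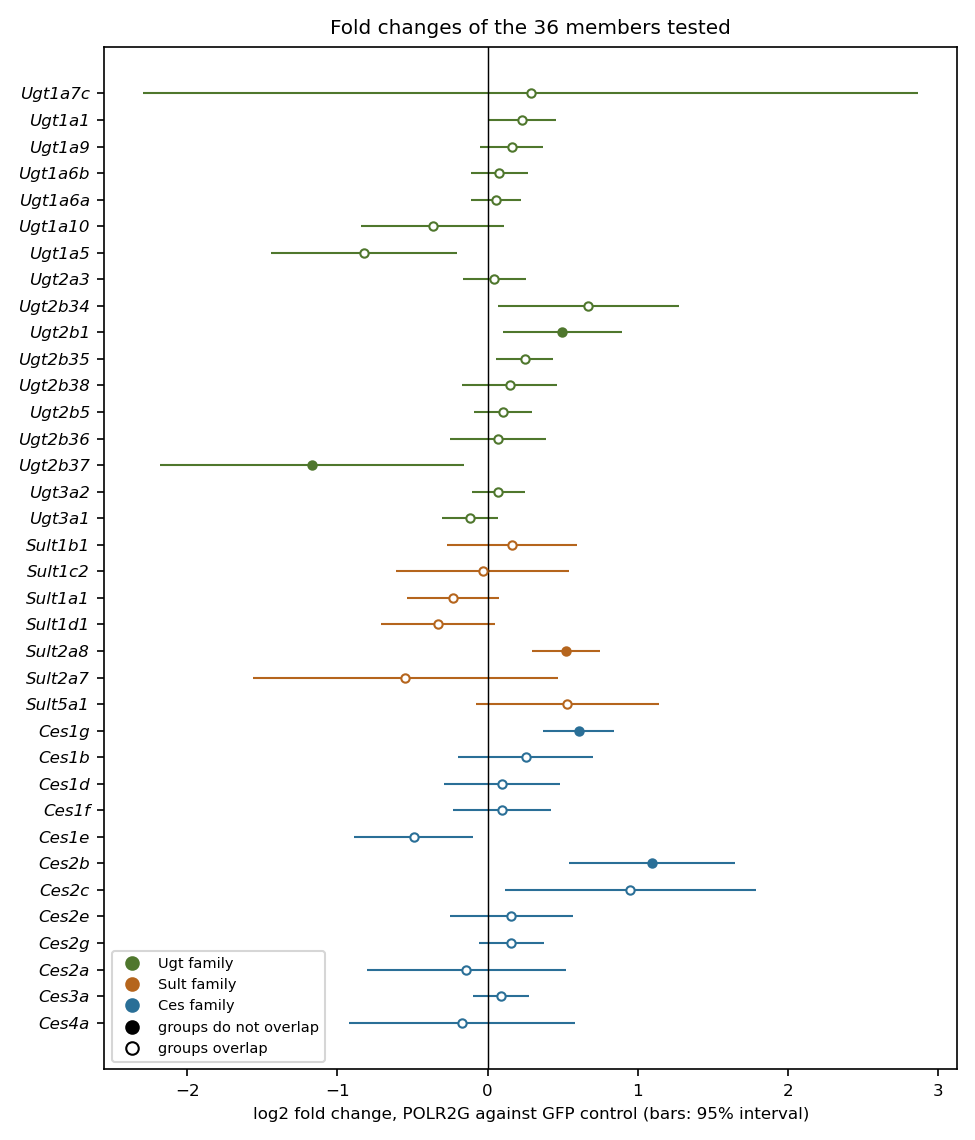
Log2 fold change of each of the 36 genes tested, POLR2G against GFP control, with the 95% interval of the edgeR fit (n = 4 libraries per group). Filled points mark the 5 genes whose groups do not overlap, and Ugt1a7c, which had 0 counts in 1 library of each group, has the widest interval.

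By family, 9 of 12 Ces genes, 3 of 7 Sult genes and 13 of 17 Ugt genes tested had a higher mean with POLR2G. The median log2 fold change was 0.13 for Ces, −0.03 for Sult and 0.08 for Ugt, and no test of the difference between families was run. The pattern of colours in the heat map of all genes by library is uneven within each family, with single genes high or low in the POLR2G columns beside neighbours at the control level. GFP control replicate 3 was the lowest of its group for 18 of the 36 genes and GFP control replicate 1 the highest for 15.

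**Figure D2:**
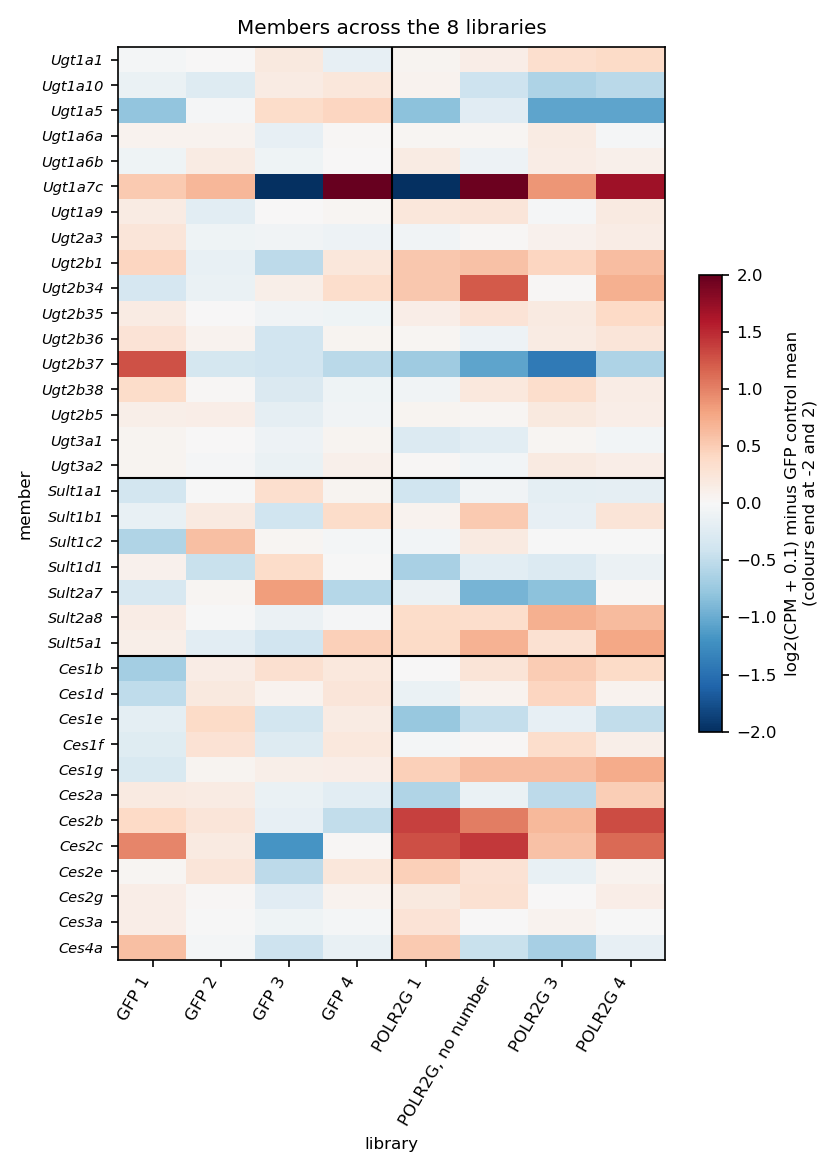
Level of the 36 genes in each library, as log2(CPM + 0.1) minus the mean of the 4 control libraries, with families separated by horizontal lines and groups by the vertical line. Ces1g, Ces2b and Sult2a8 are red in all 4 POLR2G columns, and Ugt2b37 is red in GFP control replicate 1 alone.

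The Ces1 genes lie side by side on mouse chromosome 8. Per kb of the longest coding transcript, Ces1d, a triacylglycerol hydrolase of liver, had the highest level of the carboxylesterases (39.4% of the family's summed CPM per kb), ahead of Ces1f with 18.6%, Ces3a with 15.4% and Ces1g with 10.1%. Ces1g (ENSMUSG00000057074, chr8:93302369-93337308, minus strand), an esterase tied to liver triglyceride and lipoprotein metabolism, measured 197, 254, 262 and 266 CPM across GFP control replicates 1 to 4. It measured 339, 373 and 406 CPM in POLR2G replicates 1, 3 and 4 and 372 CPM in the POLR2G library without a number. The lowest POLR2G library thus stood above the highest control. Its log2 fold change was 0.61 (SE 0.105, edgeR adjusted p = 0.132), a 1.52-fold higher level.

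Ces1e (ENSMUSG00000061959, chr8:93201218-93229619, minus strand) was the gene of the cluster with a lower mean. It measured 51.0, 76.3, 45.2 and 65.5 CPM in GFP control replicates 1 to 4 and 34.5, 51.9, 41.4 and 41.7 CPM in POLR2G replicates 1, 3, 4 and the unnumbered library. POLR2G replicate 3 lay above 2 of the controls, so the groups overlap. Its log2 fold change was −0.49 (SE 0.176, edgeR adjusted p = 0.490). As a share of all Ces1 counts in a library, Ces1g took 12.5% to 14.9% in the controls and 15.7% to 20.2% with POLR2G, while Ces1e took 2.56% to 3.81% and 1.99% to 2.19%. On this share scale neither gene's groups overlap. Ces1g counts are part of the total against which Ces1e is set. Such shares were taken for a few chosen genes and not over all genes. Those of Ces1d, Ces2c, Ces2e, Ugt1a1, Ugt1a5 and Sult2a8 within their subfamilies overlapped.

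The most abundant carboxylesterases differed less than their spread. Ces1d measured 677, 1091, 1003 and 1136 CPM in GFP control replicates 1 to 4 and 874, 1293, 1004 and 1008 CPM in POLR2G replicates 1, 3, 4 and the unnumbered library (log2 fold change 0.10, 95% interval −0.29 to 0.48). GFP control replicate 1 was its lowest library, and without it the log2 fold change was −0.04. With the Mup share of each library as a covariate, described below, it was 0.39 (edgeR adjusted p = 0.544). Ces1f, its neighbour in the cluster, measured 369, 533, 365 and 504 CPM in the controls and 423, 555, 472 and 444 CPM with POLR2G in the same order of libraries (0.10, interval −0.23 to 0.42). For Ces1f the controls span the whole POLR2G range but for its highest library. Ces3a, the third most abundant, measured 429, 388, 367 and 378 CPM in the controls and 469.8, 409, 389 and 392 CPM with POLR2G (0.09, interval −0.10 to 0.28). Its groups overlap through GFP control replicate 1, and 42.6% of its 31-base stretches also occur in Ces3b, so reads of the pair may have been split between them. Ces1b, at 71.1 ± 19.2 and 84.8 ± 12.1 CPM, also overlapped.

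The Ces2 genes form a second cluster on chromosome 8, and Ces2c is known as a diacylglycerol and triacylglycerol hydrolase. Ces2b (ENSMUSG00000050097, chr8:104831572-104840093, plus strand) measured 5.20, 4.64, 3.48 and 2.76 CPM in GFP control replicates 1 to 4 and 10.3, 6.21, 9.80 and 8.09 CPM in POLR2G replicates 1, 3, 4 and the unnumbered library. Every POLR2G library was above every control. This gave a log2 fold change of 1.09 (SE 0.246, edgeR adjusted p = 0.236), the highest of the 36 genes, at a mean level of 1.85 CPM per kb. Of the 31-base stretches of Ces2b 25.4% also occur in other genes, 8.02% of them in the far more abundant Ces2c. Some of its reads may therefore belong to other genes. Ces2c (ENSMUSG00000061825, chr8:104847068-104854483, plus strand) measured 137, 78.8, 30.7 and 70.9 CPM in GFP control replicates 1 to 4 and 170.04, 105, 152 and 187 CPM in POLR2G replicates 1, 3, 4 and the unnumbered library. Only GFP control replicate 1 reached into the POLR2G range, and GFP control replicate 3 was the lowest of all 8. Ces2c had a log2 fold change of 0.95 (SE 0.372, edgeR adjusted p = 0.530). Of the 31-base stretches of Ces2c 50.2% also occur in the pseudogene Ces2d-ps, which leaves the assignment of its reads uncertain. The remaining Ces2 genes, Ces2a, Ces2e and Ces2g, and Ces4a had log2 fold changes from −0.17 to 0.16 with overlapping groups.

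**Figure D3:**
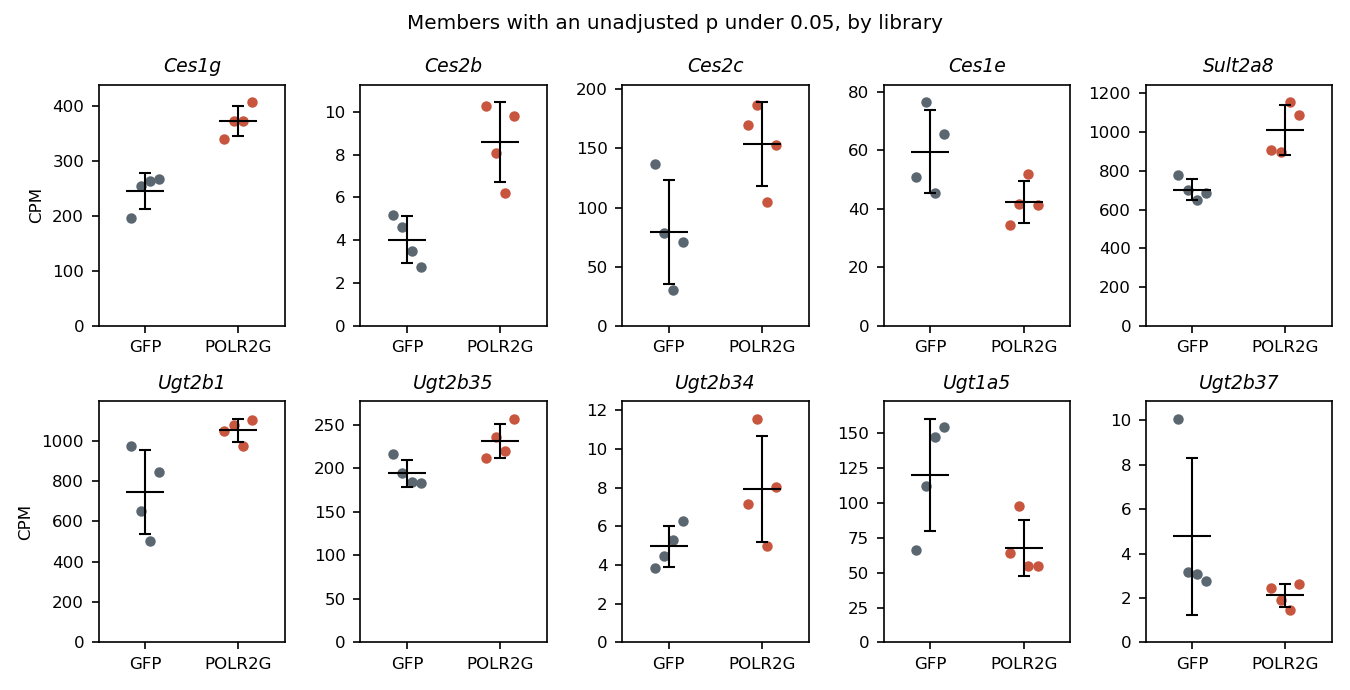
CPM in each library (points), with the mean and SD of each group (bars, n = 4), for the 10 genes with an unadjusted edgeR p under 0.05. Ces1g, Ces2b, Sult2a8 and Ugt2b1 have every POLR2G point above every control point, and the Ugt2b37 mean of the controls is pulled up by 1 library at 10.1 CPM.

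Among the sulfotransferases 3 genes carried 98.4% of the family's level per kb: Sult2a8 with 52.7%, Sult1a1 with 32.0% and Sult1d1 with 13.7%. Sult2a8 (ENSMUSG00000030378, chr7:14410686-14446769, minus strand), which sulfates bile acids in mouse liver, measured 779.5, 699.8, 649 and 688 CPM across GFP control replicates 1 to 4. With POLR2G it measured 906, 1154 and 1087 CPM in replicates 1, 3 and 4 and 899 CPM in the unnumbered library. The groups are apart, with GFP control replicate 1 the closest to the POLR2G range. Its log2 fold change was 0.52 (SE 0.102, edgeR adjusted p = 0.167), 1.44-fold. None of the 31-base stretches of its longest coding transcript occurs in another gene. Sult2a8 has 6 annotated coding transcripts, so its level carries the limit given above.

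Of the 4 Sult1 genes, which handle phenols, catecholamines and other small molecules, 3 had a lower mean and 1 a higher mean with POLR2G. Sult1a1, the main phenol sulfotransferase, measured 274, 351, 445 and 366 CPM in GFP control replicates 1 to 4 and 268, 308, 311 and 337 CPM in POLR2G replicates 1, 3, 4 and the unnumbered library (log2 fold change −0.23, interval −0.54 to 0.08). Its lowest library was in the POLR2G group and its highest was GFP control replicate 3, without which the log2 fold change was −0.11. Sult1d1, an enzyme for catecholamines, measured 293, 202, 355 and 274 CPM in the controls and 176, 228, 253 and 237 CPM with POLR2G (−0.33, interval −0.71 to 0.05, edgeR adjusted p = 0.658). Again GFP control replicate 3 was the highest, and without it the value was −0.20, while GFP control replicate 2 lay within the POLR2G range. Sult1b1, known for thyroid hormones, and Sult1c2 had log2 fold changes of 0.16 and −0.03.

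Sult5a1 and Sult2a7 had the highest and lowest log2 fold changes of the family at very low levels. Sult5a1 measured 2.15, 1.68, 1.48 and 2.76 CPM in GFP control replicates 1 to 4 and 2.61, 2.46, 3.42 and 3.23 CPM in POLR2G replicates 1, 3, 4 and the unnumbered library (0.53, SE 0.272, edgeR adjusted p = 0.658). Sult2a7 measured 0.791, 1.04, 1.87 and 0.650 CPM in the controls and 0.917, 0.527, 1.03 and 0.479 CPM with POLR2G (−0.55, SE 0.451, edgeR adjusted p = 0.816). Both pairs of groups overlap. Sult2a7 rests on 8 to 29 counts per library, and its log2 fold change was −0.16 without GFP control replicate 3. Sult2a1, Sult2a2 and Sult3a1, known as female-predominant in mouse liver, had 3, 6 and 1 counts over the 8 libraries.

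The Ugt2 genes on chromosome 5 encode enzymes for steroids, bile acids and drugs. Ugt2b5 (ENSMUSG00000054630, chr5:87124960-87140318, minus strand) had the highest level per kb of all 37 genes, 602 CPM per kb and 28.1% of the Ugt family. It measured 1161, 1175, 953 and 1025 CPM in GFP control replicates 1 to 4 and 1111, 1235, 1181 and 1107 CPM in POLR2G replicates 1, 3, 4 and the unnumbered library (log2 fold change 0.10, interval −0.09 to 0.30, and 0.05 without GFP control replicate 3). The groups overlap, and 44.9% of its 31-base stretches occur in Ugt2b38, which was at 159 ± 31.1 and 176 ± 20.4 CPM.

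Ugt2b1 (ENSMUSG00000035836, chr5:86916638-86926530, minus strand) had 16.3% of the Ugt family per kb over all 8 libraries, close to Ugt1a1 with 16.1%, and shares 0.826% of its 31-base stretches with other genes. It measured 974, 654, 504 and 846 CPM in GFP control replicates 1 to 4 and 1049, 975, 1105 and 1079 CPM in POLR2G replicates 1, 3, 4 and the unnumbered library. The groups are apart, but narrowly: GFP control replicate 1 was at 973.8 CPM and POLR2G replicate 3 at 974.8 CPM. The log2 fold change was 0.50 (SE 0.177, edgeR adjusted p = 0.485).

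Ugt2b35 (ENSMUSG00000035811, chr5:87000860-87013275, plus strand) measured 216, 194, 184 and 183 CPM in GFP control replicates 1 to 4 and 212, 220.3, 257 and 235 CPM in POLR2G replicates 1, 3, 4 and the unnumbered library. The groups overlap only because GFP control replicate 1 exceeded POLR2G replicate 1. The log2 fold change was 0.25 (SE 0.0842, edgeR adjusted p = 0.460). Ugt2b34 (ENSMUSG00000029260, chr5:86889767-86906937, minus strand) measured 3.84, 4.47, 5.29 and 6.29 CPM in the controls and 7.14, 4.98, 8.03 and 11.6 CPM with POLR2G (0.67, SE 0.268, edgeR adjusted p = 0.530). POLR2G replicate 3 lay among the controls and the unnumbered library was the highest. Without the latter the log2 fold change was 0.43, and with the replicate number as a block it was 0.39.

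Ugt2b37 (ENSMUSG00000057425, chr5:87240493-87254804, minus strand) had the lowest log2 fold change of the 36 genes, −1.17 (SE 0.450, edgeR adjusted p = 0.513). It measured 10.1, 3.19, 3.09 and 2.76 CPM in GFP control replicates 1 to 4 and 2.46, 1.46, 2.62 and 1.92 CPM in POLR2G replicates 1, 3, 4 and the unnumbered library. All POLR2G libraries were below all controls, but the size rests on GFP control replicate 1: without it the log2 fold change was −0.51 (adjusted p = 0.713). Of its 31-base stretches 25.9% occur in Ugt2b5, which was at 602 CPM per kb against 1.82 CPM per kb for Ugt2b37. Ugt2a3 and Ugt2b36 had log2 fold changes of 0.04 and 0.07.

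The Ugt1a genes are 1 locus on chromosome 1 in which different upstream exons are spliced to the same later exons. In the annotation Ugt1a6a and Ugt1a7c also share the exon before the junction (chr1:88138473-88139331). GENCODE M21 gives the exons chr1:88215044-88215175, chr1:88215795-88215882 and chr1:88216138-88216357 in all 9 genes, so these exons cannot tell them apart. The upstream part of a transcript differs between most of them. The annotated ends differ too, with Ugt1a7c ending at 88220002 and Ugt1a1 and Ugt1a6a at 88218997. The junctions below are shown because the bases to their left differ between most of these genes. Each line has the last 25 bases before the shared exons in lower case and the first 20 shared bases in capitals, from GENCODE M21 transcripts (GRCm38, plus strand).
Ugt1a1: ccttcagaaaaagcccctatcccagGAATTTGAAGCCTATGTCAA
Ugt1a5: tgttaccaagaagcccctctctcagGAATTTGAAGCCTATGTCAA
Ugt1a9: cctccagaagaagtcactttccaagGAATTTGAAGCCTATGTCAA
Ugt1a10: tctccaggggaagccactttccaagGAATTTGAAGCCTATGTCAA
Ugt1a6a: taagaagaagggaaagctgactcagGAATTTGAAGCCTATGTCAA
The capitals are the same in all 9 genes. Of the 25 bases in lower case, 17 of Ugt1a5, 19 of Ugt1a9, 17 of Ugt1a10 and 10 of Ugt1a6a match Ugt1a1 by position. Ugt1a2 has the same 45 bases as Ugt1a5, and Ugt1a6b and Ugt1a7c the same as Ugt1a6a. Over the whole transcript, 100% of the 31-base stretches of Ugt1a6a and 85.1% of those of Ugt1a6b occur in Ugt1a7c, 58.5% of Ugt1a1 and 65.3% of Ugt1a5 in other genes. Levels of single genes of the locus are therefore uncertain, and those of Ugt1a6a and Ugt1a6b were also summed.

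Ugt1a1 (ENSMUSG00000089960, chr1:88211959-88218997), the enzyme that conjugates bilirubin, had the highest level per kb of the locus. It measured 685, 705, 802 and 628 CPM in GFP control replicates 1 to 4 and 729.6, 889, 911 and 771 CPM in POLR2G replicates 1, 3, 4 and the unnumbered library. GFP control replicate 3 stood above 2 POLR2G libraries. Ugt1a1 had a log2 fold change of 0.23 (SE 0.101, edgeR adjusted p = 0.601).

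Ugt1a5 (ENSMUSG00000089943, chr1:88166012-88218997) had the opposite direction. It measured 66.0, 112, 147 and 154 CPM in GFP control replicates 1 to 4 and 64.1, 55.0, 54.8 and 97.5 CPM in POLR2G replicates 1, 3, 4 and the unnumbered library. Only GFP control replicate 1 lay in the POLR2G range. Ugt1a5 had a log2 fold change of −0.82 (SE 0.275, edgeR adjusted p = 0.455). Its share of all Ugt1a counts was 5.50%, 8.92%, 10.8% and 12.5% in the controls and 5.03%, 3.90%, 3.84% and 7.37% with POLR2G, so that the groups overlap on this scale too. Ugt1a2, which has the same bases at the junction, had 82 counts in all and was not tested. The sum of Ugt1a6a and Ugt1a6b, enzymes for phenols, was 297 ± 19.9 and 311 ± 17.2 CPM. Ugt1a9 and Ugt1a10 had log2 fold changes of 0.16 and −0.36 with overlapping groups, and Ugt1a7c ranged from 0 to 4.12 CPM in the controls.

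Because Ugt1a1 and Ugt1a5 start from separate promoters, the 250 bases before each start are shown (RefSeq, GRCm38.p6, plus strand, chr1:88211709-88211958 and chr1:88165762-88166011). Both starts coincide with those of GENCODE M21. Capitals mark any match to GTTAAT (the HNF1 repeat unit), TATAAA (the core promoter box), TTGCNNAA (CEBP), AGGTCA (the repeat unit of nuclear receptors) or GCGTG (the core of a xenobiotic response element), each searched on both strands.
Ugt1a1: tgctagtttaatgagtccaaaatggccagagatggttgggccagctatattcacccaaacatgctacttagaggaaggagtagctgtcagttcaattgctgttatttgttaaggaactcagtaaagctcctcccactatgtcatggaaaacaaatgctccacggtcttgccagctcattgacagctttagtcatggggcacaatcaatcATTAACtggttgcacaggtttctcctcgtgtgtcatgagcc
Ugt1a5: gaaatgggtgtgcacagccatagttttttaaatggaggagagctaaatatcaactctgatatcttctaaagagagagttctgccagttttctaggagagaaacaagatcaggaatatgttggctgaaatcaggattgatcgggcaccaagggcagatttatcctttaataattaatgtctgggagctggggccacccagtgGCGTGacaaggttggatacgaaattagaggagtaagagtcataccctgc
The Ugt1a1 stretch has the HNF1 unit, on the opposite strand, beginning 41 bases before the start, and the Ugt1a5 stretch has GCGTG beginning 49 bases before it. RefSeq windows from 250 bases before to 50 after a start were found for 30 of the 37 genes (33 windows). GTTAAT was in 24.2% of them against 7.1% of all 32851 windows, AGGTCA in 33.3% against 16.3%, TTGCNNAA in 33.3% against 10.8%, TATAAA in 15.2% against 13.6% and GCGTG in 9.09% against 32.4%. TGANNNNGC, the core of an antioxidant response element, was in 36.4% against 41.3%, and TTCNNNGAA, a GAS site as bound by STAT5, in 3.03% against 8.3%. TGANNNNGC was not marked in the stretches above, and its matches numbered 4 in the Ugt1a1 window and 1 in the Ugt1a5 window. A match is a description of letters in these windows, and several windows are of neighbouring copies.

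The Ugt3a genes on chromosome 15 encode transferases that use sugars other than glucuronate. Ugt3a2 was at 459 ± 31.6 CPM in the controls and 482 ± 35.2 CPM with POLR2G, and Ugt3a1 at 108 ± 5.29 and 99.4 ± 9.86 CPM. Both pairs of groups overlap, and the intervals of the log2 fold changes were −0.11 to 0.25 and −0.30 to 0.07.

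Summed over all 37 genes, the level was 8358, 8436, 7849.9 and 8545 CPM in GFP control replicates 1 to 4 and 8818, 9927, 9702 and 9209 CPM in POLR2G replicates 1, 3, 4 and the unnumbered library. The ratio of the means was 1.13 (log2 0.18), and all POLR2G libraries were above all controls. Sums are led by abundant genes and were not tested. The 3 families had similar ratios of means, log2 0.19 for Ces, 0.20 for Sult and 0.17 for Ugt, but each family's groups overlap. The labels do not say that the replicate numbers pair the libraries. Side by side for numbers 1, 3 and 4, control then POLR2G, Ces was at 2138 and 2677, 2323 and 3091, and 2751 and 2795 CPM. Sult was at 1370.3 and 1379, 1472 and 1715, and 1360.2 and 1682 CPM. Ugt was at 4849 and 4761, 4055 and 5120.5, and 4434 and 5225 CPM, lower with POLR2G for number 1 and higher for the others. The subfamilies differed more: Sult2 had 705 ± 54.3 and 1012 ± 129 CPM (log2 0.52, groups apart), of which Sult2a8 made up over 99.7% in every library. Sult1 had 664 ± 110.4 and 557 ± 61.6 CPM (log2 −0.26, groups overlapping). Ces2 had 302 ± 76.1 and 406 ± 71.9 CPM (log2 0.43), Ces1 1795 ± 333 and 2017 ± 263 CPM (0.17), Ugt2a with Ugt2b 2606 ± 364 and 3061 ± 108 CPM (0.23), Ugt1a 1262 ± 70.2 and 1358 ± 72.5 CPM (0.11) and Ugt3a 567 ± 36.6 and 582 ± 44.4 CPM (0.04). Single libraries moved several of these ratios. Without GFP control replicate 1 the log2 ratio was 0.12 for Ces and 0.05 for Ces1, which was 0.08 without POLR2G replicate 3. Without GFP control replicate 3 it was 0.26 for Ces2, −0.14 for Sult1 and 0.15 for Ugt2a with Ugt2b. In the Ugt2 sum GFP control replicate 1, at 3064 CPM, lay among the POLR2G libraries.

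**Figure D4:**
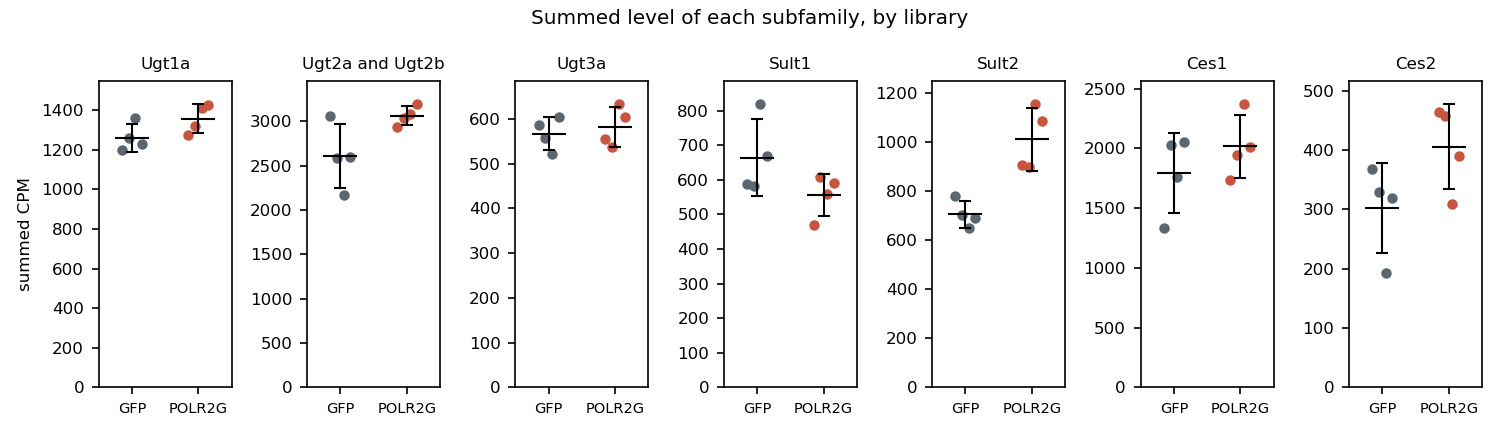
Summed CPM in each library of 7 subfamilies, with Ugt2a and Ugt2b as 1 (points), with the mean and SD of each group (bars, n = 4). Of the 7 sums plotted, the groups do not overlap for Sult2, and Sult1 has a lower mean in the POLR2G group.

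The libraries also differed in male-biased transcripts, which include the major urinary protein (Mup) genes of male liver. Mup genes took 16.1%, 9.59%, 6.89% and 10.01% of all counts in GFP control replicates 1 to 4 and 18.04%, 13.8%, 14.3% and 12.5% in POLR2G replicates 1, 3, 4 and the unnumbered library. Of 18 male-biased genes tested 15 had a higher mean with POLR2G (median log2 fold change 0.46), with Serpina1e at 0.68 (SE 0.131) and Mup21 at 1.05 (SE 0.218). The 3 with a lower mean were Elovl3 at −0.21 (SE 0.222), Mup20 at −0.08 (SE 0.126) and Cyp4a12a at −0.05 (SE 0.438). In edgeR 8 of the 18 had an unadjusted p under 0.05, all higher, and 0 an adjusted one. Over all genes tested 8.3% had such an unadjusted p, 4.2% higher and 4.1% lower. Of 6 female-biased genes tested 5 had a lower mean and all 6 an unadjusted p under 0.05 (0 adjusted; median −1.01), with Acot3 at −2.28 (SE 0.477), Cyp17a1 at −1.33 (SE 0.317) and Cyp2c69 in the other direction at 0.64 (SE 0.246). The mean of the male-biased genes, as log2(CPM + 0.1) minus the control mean, was 0.45, 0.05, −0.69 and 0.19 in the controls and 0.68, 0.47, 0.59 and 0.41 with POLR2G. GFP control replicate 3 thus had the lowest male-biased level and GFP control replicate 1 the highest of its group.

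The plot against the Mup share shows 4 of the enzymes beside it. For Ces2c and Ugt2b1, GFP control replicate 1 was the highest control and GFP control replicate 3 the lowest, and with the Mup share as a covariate in edgeR their log2 fold changes were 0.43 (adjusted p = 0.673) and 0.21 (adjusted p = 0.671). Ugt1a5 had its lowest control in replicate 1, and its value became −0.29 (adjusted p = 0.757). For Ces1g the controls went the other way, with replicate 1 the lowest, and its value was 0.79 with the covariate (adjusted p = 0.0899). Sult2a8 was at 0.45, Ces2b at 0.83, Ugt2b35 at 0.19 and Ces1e at −0.44. Ugt2b37, at −1.73, and Ugt2b34, at 0.92, lay further from no change than in the main fit. The Mup share is read from the same libraries and was mostly higher with POLR2G. With 4 libraries per group, this fit cannot tell the male-biased pattern and the POLR2G insert apart. The part of that pattern in these differences was not tested.

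**Figure D5:**
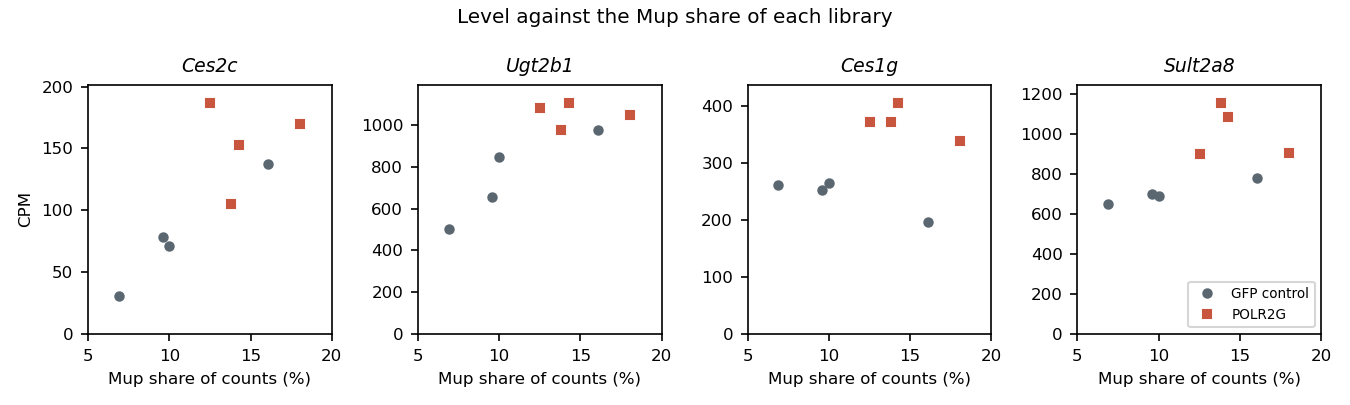
CPM of Ces2c, Ugt2b1, Ces1g and Sult2a8 in each library against the share of counts from Mup genes in that library. In the 4 control libraries Ces2c and Ugt2b1 are lowest where the Mup share is 6.89% and highest where it is 16.1%. For Ces1g, Sult2a8 and, narrowly, Ugt2b1 all POLR2G squares lie above the control circles.

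Genes that serve these enzymes were read from lists, and none passed the adjusted threshold. For UDP-glucuronate, 2 of 5 genes tested had a higher and 3 a lower mean. For PAPS, 3 of 7 were higher and 4 lower. Papss1, which makes PAPS, was at a low level, 1.92 ± 1.52 and 4.31 ± 1.65 CPM (log2 fold change 1.16, SE 0.585, edgeR adjusted p = 0.654). Papss2, which also makes PAPS and was named after its values were seen, was far more abundant. It was at 218 ± 45.0 and 253 ± 13.1 CPM (log2 fold change 0.22, SE 0.128, edgeR adjusted p = 0.729). Impad1, a phosphatase that breaks down the spent sulfate donor, was at −0.15 (SE 0.0785). Among 5 genes that undo conjugation or mature the enzymes that do, 2 were higher and 3 lower. Arsa, the lysosomal arylsulfatase A, was at 37.6 ± 4.98 CPM in the controls and 26.5 ± 0.494 CPM with POLR2G, with all POLR2G libraries below all controls (log2 fold change −0.51, SE 0.0951, edgeR adjusted p = 0.164).

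Of 14 other hydrolases tested 7 were higher and 7 lower, with Mgll, the monoacylglycerol lipase, at −0.31 (SE 0.126, edgeR adjusted p = 0.539). Aadat, at 0.42 (SE 0.177, edgeR adjusted p = 0.579), stood on that list although it encodes an aminotransferase. Of 12 transporters of conjugates 8 were higher and 4 lower, none with an unadjusted p under 0.05. The smallest p values were those of Abcc6, an efflux pump, with 0.21 on the log2 scale (SE 0.0924), and Slco1a4, an uptake carrier, with −0.52 (SE 0.239). Of 13 regulators tested 4 were higher and 9 lower, again none with such a p. Nfe2l2, which drives antioxidant response genes, was at −0.15 (SE 0.0999). The xenobiotic receptor genes Nr1i2 and Nr1i3, named after their values were seen, were at −0.05 (SE 0.110) and −0.06 (SE 0.242). Of 8 tested marker targets of 4 xenobiotic and antioxidant regulators (Nr1i2, Nr1i3, Ahr and Nfe2l2) 7 had a higher and 1 a lower mean. Their median log2 fold change was 0.08, and 1 had an unadjusted p under 0.05. That was Cyp1a2, a target of the aryl hydrocarbon receptor, at 693 ± 100.4 and 867 ± 90.2 CPM (log2 fold change 0.32, edgeR adjusted p = 0.482). Cyp1a1, another target of that receptor and named after its values were seen, was at 0.01 (SE 0.404) at a low level.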

How the data were processed

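The deposited table holds estimated counts per gene as whole numbers for 8 liver libraries, and the authors did not normalize them. Salmon 1.2.1, GRCm38 and mm10 are listed, per the submitters' processing notes, without saying what each was used for. No annotation release, rounding step or rule for summing transcripts is stated in those notes. Libraries were strand-specific and poly-A selected, per the labels' protocols. Columns were matched to samples by library name. For 1 POLR2G column the labels list no matching number, and it entered the group without a replicate number.

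Symbols and coordinates came from GENCODE M21 (GRCm38, counted from 1), and 20817 of 20894 identifiers had a symbol. Genes of the families, the lists and the tests were chosen with earlier results of these data known. Counts were scaled by TMM and tested by quasi-likelihood in edgeR 4.0.16 under R 4.3.3 (two-sided, Benjamini-Hochberg over 10390 genes, threshold 0.05) after filterByExpr (minimum count 10, minimum total 15). The biological coefficient of variation was 0.248. SE is the size of the log2 fold change over the root of F, and 95% intervals use the degrees of freedom of the same fit. Per-library values were printed for genes with an unadjusted p under 0.05, for those whose groups do not overlap, for the 3 highest per kb in each family and for the largest and smallest log2 fold change of each family (19 genes). From each list, up to 4 genes with an unadjusted p under 0.05, or otherwise the 2 with the smallest p, could be named, and a few of these are not reported here. Sums and shares were not tested. Sequence sharing is the percent of 31-base stretches of a gene's longest coding transcript that also occur in transcripts of another gene.

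Alternatives were other scalings (RLE, upper quartile, library totals alone), DESeq2 1.42.0, limma-voom (limma 3.58.1), no low-count filter or a stricter one (1 CPM in 4 libraries), the replicate number as a block, the Mup share of each library as a covariate, and leaving out each library. The labels do not say that the numbers pair the libraries, so the main fit used the group alone and the block was an alternative. The 3 pairs with the same number in the labels deviated together over 2881 genes (correlations 0.250, 0.152 and 0.119). Of the pairs with unlike numbers, GFP control replicate 4 with POLR2G replicate 3 was the highest at 0.0954. GFP control replicate 1 with POLR2G replicate 3 was the lowest at −0.199. GFP control replicate 2 and the unnumbered POLR2G library, the libraries left over, correlated at 0.209 and were not paired, since no label gives them a shared number. No library repeated another: chi-square over degrees of freedom was 13.7 to 138 within groups, far above sampling noise. Simulated counts for this comparison (10390 genes) served as a check. In them 50 genes were changed at each fold size, and each gene was drawn independently with its own edgeR dispersion. There, edgeR found 22% of changes of 1.5-fold, 54% of those of 2-fold, 78% at 4-fold and 92% at 8-fold, and 5 of its 128 calls were false. DESeq2 found 28%, 62%, 84% and 96%, and 40 of its 175 calls were false. So many planted changes ease the adjusted threshold. The shares found in the real libraries, where edgeR called 4 genes, may therefore be lower.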

Additional observations from a re-analysis of the deposited data

Results flagged for a closer look

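In 2 of 100 groups of 4 libraries examined, 1 library stood far from the other 3, where chance gives about 1 in 20. Ugt2a3 measured 475 CPM in GFP control replicate 1 against 372 to 382 in the other controls. Ugt2b37 measured 10.1 CPM in the same library against 2.76 to 3.19.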

How the results depend on the processing

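All 10 enzymes with an unadjusted p under 0.05 kept the direction of their log2 fold change under the 17 alternatives run. Ces1g ranged from 0.51 to 0.65, Sult2a8 from 0.45 to 0.58 and Ces2b from 0.95 to 1.24 with 1 library left out. The number of all genes called, 4, was 1 without composition scaling, 135 with DESeq2, 2 with the replicate number as a block, 2 with the Mup share as a covariate, and 1 to 6 with 1 library left out. The enzymes called, 0, were 3 with DESeq2, 0 with any 1 library left out and 0 with the replicate number as a block. Ces1d ranged from −0.043 to 0.18 with 1 library left out, at −0.043 without GFP control replicate 1 and −0.022 without POLR2G replicate 3, and at 0.39 with the Mup covariate, under which Ces3a turned to −0.038 and Sult1a1 to 0.082. Without composition scaling, which moved the median of all genes by less than 0.1 to −0.079, the log2 ratio of the sums was 0.027 for Ugt1a and 0.11 for all 37 genes. The summed Ugt3a level, at a log2 ratio of 0.04, ranged from −0.0054 to 0.074 with 1 library left out. The causes were not tested. Genes with few counts, such as Sult2a7, Ugt1a2 and Ugt1a7c, allow no firm statement at this depth.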
